A study of Homo sapiens with 18 samples.

Results

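The 10 genes described here are the 4 ERBB receptor genes (EGFR, ERBB2, ERBB3 and ERBB4) and 6 genes of their EGF family ligands (AREG, EREG, HBEGF, TGFA, BTC and NRG1). They were chosen by symbol, with no measured value in the rule but with earlier results of these data known, as were the 5 pathway lists used further on, and all 10 were found among the 28277 genes of the deposited count table. Of these 10, 6 had enough counts to be tested (EGFR, ERBB2, ERBB3, HBEGF, TGFA and AREG), and ERBB4, EREG, BTC and NRG1 did not. EGFR transcripts were higher in both XIST knockdown (KD) groups than in the control and fell in hypoxia in all 3 guide groups, whereas HBEGF and TGFA rose in hypoxia in all 3.

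RNA-seq was analyzed in OVCAR3-KRAB cells, an established ovarian cancer cell line that stably expresses dCas9-KRAB, a Cas9 without nuclease activity joined to a repressor domain. All 6 groups carry this transgene and a guide RNA: sgCtl (sgControl in the labels), which targets a Gal4 promoter, or sgXIST7 or sgXIST9, which target different sequences of the XIST promoter. Cells of each guide were kept in normoxia or for 24 h in a chamber with 1% oxygen (hypoxia), with 3 libraries in each group and 18 in all. The study made monoclonal lines and selected clones that had lost XIST. The labels name no clone, so that the guide and the clone cannot be told apart, and they do not say whether replicates came from separate cultures. The paper calls the 3 RNA-seq replicates biological and does not describe how they were made. The p-values therefore measure the spread between these libraries, which may be technical if replicates shared a culture.

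ERBB receptors are tyrosine kinases of the cell surface that pair when an EGF family ligand binds and then signal through RAS and ERK and through PI3K and AKT. ERBB2 binds no known ligand and acts as a partner, ERBB3 has little kinase activity of its own and recruits PI3K, and ERBB4 is bound by neuregulins. The ligands are made as membrane-bound precursors that are released by proteases such as ADAM17, and in epithelial tumors including ovarian carcinoma the family is known for driving growth.

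The promoter sequences of the genes that changed most across oxygen levels are shown first, since HBEGF, TGFA and AREG moved up and EGFR moved down. Each is the 250 bases before the gene's start in the RefSeq record of GRCh38.p14 (hg38), written 5′ to 3′ on the gene's strand. Motif letters found on either strand are in capitals: the core of the hypoxia response element (ACGTG or GCGTG), the AP-1 site (TGANTCA) and the cAMP response element (TGACGTCA). No position counted here belongs to more than 1 of these motifs.
HBEGF (chr5:140346604-140346853, minus strand): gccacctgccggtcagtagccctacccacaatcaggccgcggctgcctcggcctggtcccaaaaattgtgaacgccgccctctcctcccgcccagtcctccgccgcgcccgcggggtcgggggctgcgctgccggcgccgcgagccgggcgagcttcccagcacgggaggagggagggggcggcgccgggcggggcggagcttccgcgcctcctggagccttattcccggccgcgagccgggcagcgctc
TGFA (chr2:70553827-70554076, minus strand): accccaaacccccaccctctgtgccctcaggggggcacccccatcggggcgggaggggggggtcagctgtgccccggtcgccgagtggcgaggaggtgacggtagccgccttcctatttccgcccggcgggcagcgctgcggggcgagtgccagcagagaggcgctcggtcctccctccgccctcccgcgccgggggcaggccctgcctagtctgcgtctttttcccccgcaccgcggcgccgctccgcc
AREG (chr4:74444886-74445135, plus strand): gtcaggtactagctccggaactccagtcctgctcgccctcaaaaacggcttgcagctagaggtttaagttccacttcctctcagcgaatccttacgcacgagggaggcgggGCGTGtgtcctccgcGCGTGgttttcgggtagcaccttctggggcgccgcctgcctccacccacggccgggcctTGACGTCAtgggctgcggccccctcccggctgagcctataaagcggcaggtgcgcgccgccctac
EGFR (chr7:55018767-55019016, plus strand): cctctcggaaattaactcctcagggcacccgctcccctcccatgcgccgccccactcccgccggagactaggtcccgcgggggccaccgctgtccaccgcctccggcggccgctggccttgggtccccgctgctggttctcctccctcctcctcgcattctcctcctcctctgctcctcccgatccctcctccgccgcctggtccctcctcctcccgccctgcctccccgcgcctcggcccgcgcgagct
The AREG window held 2 GCGTG cores, at bases −139 to −135 and −124 to −120 from the start, and 1 TGACGTCA from −65 to −58. The HBEGF, TGFA and EGFR windows printed, which end at the start of the table's gene model, held none of these letters, which says nothing of binding elsewhere. TGFA and EGFR each had a second RefSeq start that is not printed: its window held 1 GCGTG core for TGFA, at −51 to −47, and 2 AP-1 sites for EGFR, at −232 to −226 and −136 to −130. A hypoxia response core was in 43.2% of the 35116 promoter windows of this length in the reference, an AP-1 site in 6.57% and a cAMP response element in 1.65%. GC content was 76.4% for HBEGF, 75.6% for TGFA, 73.6% for EGFR and 65.2% for AREG, against a median of 58.0% over all windows. A promoter record was found for 8 of the 10 genes.

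The table's gene models place EGFR at chr7:55019017-55211628 on the plus strand, ERBB2 at chr17:39688084-39728662 (plus), ERBB3 at chr12:56080025-56103507 (plus), HBEGF at chr5:140332843-140346603 (minus) and TGFA at chr2:70447285-70553826 (minus). AREG (chr4:74445136-74455004, plus), EREG (chr4:74365145-74388747, plus) and BTC (chr4:74744760-74794523, minus) share a stretch of chromosome 4. Exons of ERBB2 overlap those of MIEN1 on the opposite strand. MIEN1 had 7838 counts over the 18 libraries, and the strand setting of the counting is not stated, so that a part of the reads of either gene may have been given to the other. EGFR-AS1, opposite to EGFR, had 1 count in all.

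Counts assigned to genes ranged from 11794375 to 24906936 per library, with a median of 17629433. XIST, the targeted gene, had 4900, 11209 and 4213 counts in sgCtl in normoxia, 5, 4 and 1 in sgXIST7, and 650, 1009 and 898 in sgXIST9, and in hypoxia it had 1974, 5014 and 1589, then 0, 2 and 3, then 357, 472 and 510. Of 10 markers of ovarian carcinoma epithelium, EPCAM (156 to 251 CPM), KRT18 (129 to 251), KRT8 (4.07 to 43.3) and PAX8 (0.83 to 5.94) were detected in every library. MUC16, WT1, KRT7, SOX17, MSLN and EMX2 had at most 4, 14, 3, 2, 16 and 22 counts in any library. MUC16 and WT1 are defining markers of high-grade serous carcinoma, so the labelled cell type is not borne out by these markers, and the identity of the line was not tested. Of the leukocyte markers, PTPRC, CD3E and CD14 had at most 1, 1 and 6 counts, and CD68, a lysosomal protein, had 10.8 to 55.8 CPM. The summed level of 4 fibroblast markers was 1.16 to 1.49 CPM in sgCtl in normoxia and 1.31 to 3.19 in hypoxia, but 69.9 to 122 and 128 to 308 in sgXIST7 and 33.4 to 60.5 and 36.9 to 73.8 in sgXIST9. COL1A2 reached 306 CPM, PDGFRA at most 0.91 and DCN at most 2.66. The part of such differences in the results was not tested. The hypoxia libraries numbered 3 stood apart from the other two of their groups (Pearson's r of log2 CPM across genes 0.959 to 0.988, against 0.989 to 0.99 between libraries 1 and 2 and 0.987 to 0.995 in normoxia). Values without all 3 are therefore given for the receptor and ligand genes whose calls they change. For genes of the pathway lists only some of the calls that change without them are marked.

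Counts of 14938 genes were compared with edgeR's quasi-likelihood test, all 6 groups in a single fit. Calls required both a log2 fold change beyond 1 in either direction and a p-value under 0.01 after Benjamini-Hochberg adjustment over all tested genes. Levels are CPM, the counts scaled to the TMM-adjusted size of each library. A count of 0 allows up to 3 counts, which is 0.13 to 0.266 CPM depending on the library, and this limit and the counting intervals cover counting error only. In bulk RNA, fewer cells that express a gene and less RNA per cell cannot be told apart.

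In normoxia, 1 of the 6 tested members was called in sgXIST7 compared to sgCtl, where 7.76% of all genes were called, and 1 of 6 in sgXIST9, where 7.7% were. The gene was EGFR both times. In hypoxia, 4 of 6 were called in sgXIST7 (14.0% of all genes): EGFR and ERBB3 were higher, HBEGF and TGFA were lower. In sgXIST9 in hypoxia, 2 of 6 were called (9.53% of all genes), EGFR and ERBB3, both higher. Hypoxia compared to normoxia called 5 of 6 in sgCtl (19.7% of all genes), 3 of 6 in sgXIST7 (27.3%) and 4 of 6 in sgXIST9 (23.3%). EGFR, HBEGF and TGFA were called in each guide group. The 7 comparisons share groups and are not independent of each other.

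EGFR, the receptor for AREG, TGFA, HBEGF and EGF, had 44.5, 52.9 and 37.1 CPM in the sgCtl libraries in normoxia. It had 99.9, 162 and 101 CPM in sgXIST7 and 119, 136 and 137 CPM in sgXIST9. Every KD library in normoxia was therefore above every sgCtl library, and the KD groups overlapped with each other. The log2 fold change compared to sgCtl was 1.43 in sgXIST7 (standard error (SE) 0.23, adjusted p = 0.00021, edgeR) and 1.55 in sgXIST9 (SE 0.23, adjusted p = 0.0001, edgeR). Between the KD groups it was −0.11 (sgXIST7 compared to sgXIST9, 95% interval −0.59 to 0.37, adjusted p = 0.84, edgeR).

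EGFR was lower after hypoxia in each guide group. The libraries had 13.2, 24.6 and 12.9 CPM in sgCtl, 43.2, 37.2 and 35.0 in sgXIST7 and 47.8, 68.8 and 62.0 in sgXIST9, with no overlap with the normoxia libraries of the same guide. The log2 fold change was −1.39 in sgCtl (SE 0.24, adjusted p = 0.00015, edgeR), −1.65 in sgXIST7 (SE 0.23, adjusted p = 1.3e-05, edgeR) and −1.14 in sgXIST9 (SE 0.23, adjusted p = 0.00051, edgeR). Without replicate 1 of sgXIST9 in hypoxia, the last of these was −0.99 and no longer past the fold limit. Its decrease did not pass the test for a difference between guides: compared to sgCtl, the change differed by −0.26 in sgXIST7 (95% interval −0.96 to 0.44) and by 0.25 in sgXIST9 (95% interval −0.44 to 0.95). In hypoxia EGFR was still higher in the KD groups than in sgCtl, by 1.17 on the log2 scale in sgXIST7 (SE 0.24, adjusted p = 0.00098, edgeR) and 1.80 in sgXIST9 (SE 0.24, adjusted p = 2.6e-05, edgeR). The call in sgXIST7 was lost without the hypoxia libraries numbered 3 (1.08, adjusted p = 0.013, edgeR) and in a fit of only those 2 groups (adjusted p = 0.015, edgeR). The mean level in hypoxia in sgXIST9 (59.6 ± 10.8 CPM, SD, n = 3) was above that of sgCtl in normoxia (44.8 ± 7.9), a pair that was not tested.

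ERBB2, the partner without a ligand, was not called in any of the 12 comparisons. It had 59.6, 61.1 and 58.9 CPM in sgCtl in normoxia, 57.8, 70.8 and 57.2 in sgXIST7 and 48.2, 49.3 and 48.1 in sgXIST9. In hypoxia the libraries had 72.1, 64.2 and 76.6 CPM in sgCtl, 71.4, 66.1 and 54.3 in sgXIST7 and 79.5, 82.2 and 83.9 in sgXIST9. All sgXIST9 libraries in hypoxia were above all those in normoxia, with a log2 fold change of 0.75 (SE 0.11, adjusted p = 2.4e-05, edgeR), under the fold limit. In sgXIST7 the difference was 0.05 (95% interval −0.18 to 0.28, adjusted p = 0.73, edgeR) and in sgCtl 0.24 (95% interval 0.01 to 0.48, adjusted p = 0.075, edgeR).

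ERBB3, the receptor that recruits PI3K, fell in hypoxia in sgCtl and did not in sgXIST9. In normoxia it had 51.1, 52.1 and 49.4 CPM in sgCtl, 65.4, 79.6 and 66.6 in sgXIST7 and 46.1, 46.2 and 47.8 in sgXIST9. In hypoxia it had 24.5, 19.3 and 27.2 CPM in sgCtl, 53.4, 47.5 and 46.3 in sgXIST7 and 64.7, 58.1 and 54.3 in sgXIST9. The sgCtl libraries in hypoxia were the lowest 3 of the 18. The log2 fold change in hypoxia was −1.11 in sgCtl (SE 0.12, adjusted p = 1.7e-06, edgeR). In sgXIST7 it was −0.52 (SE 0.12, adjusted p = 0.0013, edgeR), under the fold limit, and in sgXIST9 it was 0.34 (SE 0.12, adjusted p = 0.024, edgeR).

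The difference of these changes was tested as an interaction. Compared to sgCtl, the change in ERBB3 was higher by 1.45 in sgXIST9 (SE 0.17, adjusted p = 0.00019, edgeR), a contrast in which 1 of 6 tested members and 1.01% of all genes were called. In sgXIST7 the difference was 0.59 (SE 0.17, adjusted p = 0.042, edgeR), and 0 of 6 members were called, against 1.52% of all genes. Between sgXIST7 and sgXIST9 it was −0.86 (SE 0.17, adjusted p = 0.019, edgeR), with 0 of 6 members and 0.167% of all genes called. An unadjusted p under 0.05 was reached in the last 2 contrasts by 1 and 2 of the 6, and DESeq2 called 0 and 0. Compared to sgCtl in normoxia, ERBB3 was already higher in sgXIST7 by 0.47 (SE 0.12, adjusted p = 0.0084, edgeR), without overlap but under the fold limit. In sgXIST9 this difference was −0.12 (adjusted p = 0.53, edgeR). In hypoxia ERBB3 was higher in KD cells than in sgCtl, by 1.06 in sgXIST7 (SE 0.12, adjusted p = 4.9e-06, edgeR) and 1.32 in sgXIST9 (SE 0.12, adjusted p = 4.9e-07, edgeR). Near the fold limit, the value in sgXIST7 was 0.93 without replicate 2 of sgCtl in hypoxia and 0.99 without replicate 1 of sgXIST7 in hypoxia. Without that sgCtl library the decrease in sgCtl was −0.98.

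ERBB4, the neuregulin receptor, was close to absent. It had 2, 4 and 4 counts in sgCtl in normoxia and between 0 and 2 in each of the other 15 libraries. The 3 sgCtl libraries in normoxia had the highest CPM, but the exact permutation test (two-sided) gave p = 0.1 against each KD group and against hypoxia in sgCtl, the smallest that 3 libraries against 3 allow. The summed counts in normoxia were 10 in sgCtl and 1 in each KD group. Per library size this is a ratio of 14.2 to sgXIST7 (95% exact interval 2.02 to 615, Clopper-Pearson, counting error only) and of 12.9 to sgXIST9 (1.83 to 560).

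**Figure D1:**
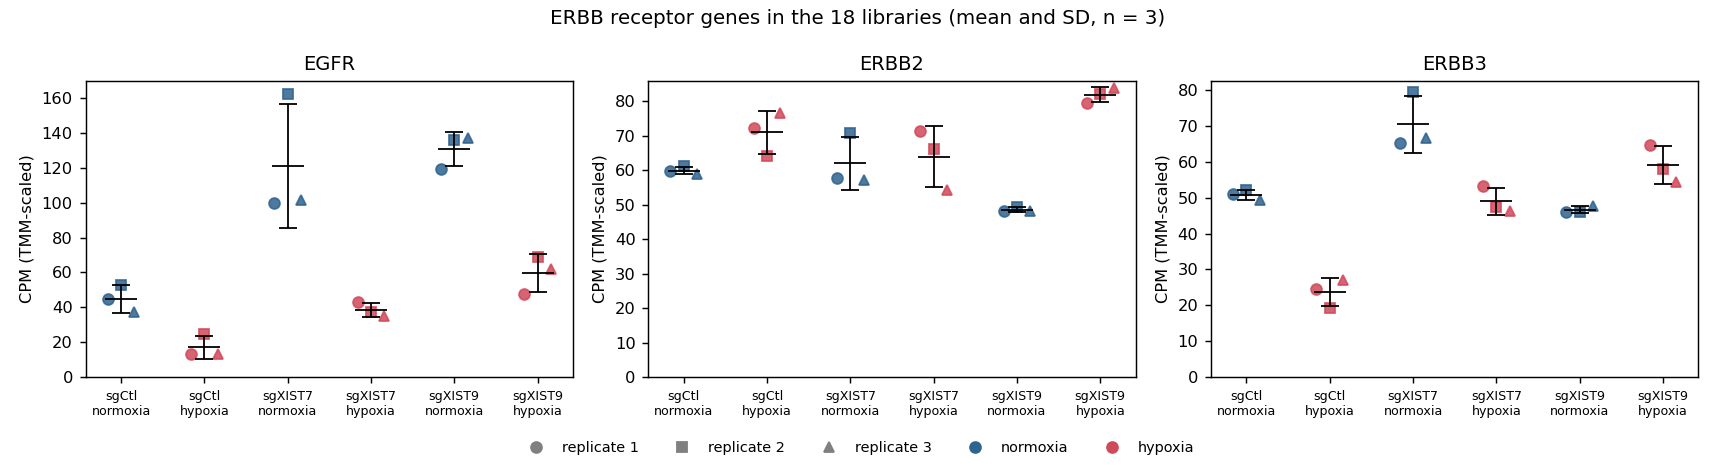
TMM-scaled CPM of EGFR, ERBB2 and ERBB3 in each of the 18 libraries, by guide and oxygen (blue, normoxia, red, hypoxia), with the mean and SD of 3 libraries in black and each panel on its own axis from 0. EGFR lies at 37.1 to 52.9 CPM in sgCtl in normoxia and at 99.9 to 162 in the KD groups, and ERBB3 is lowest in sgCtl in hypoxia.

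For a comparison between genes, CPM was divided by the gene length of the table (CPM per kb). In sgCtl in normoxia the order was ERBB2 (10.9 ± 0.20, SD, n = 3), ERBB3 (8.21 ± 0.23), EGFR (3.92 ± 0.69) and HBEGF (1.03 ± 0.16), with no overlap between neighbours. TGFA (0.27 ± 0.07) and AREG (0.09 ± 0.16) followed and overlapped with each other. In sgXIST7 in normoxia ERBB3 (11.4 ± 1.27), ERBB2 (11.3 ± 1.40) and EGFR (10.6 ± 3.11) overlapped. In sgXIST9 in normoxia EGFR came first (11.4 ± 0.86), above ERBB2 (8.83 ± 0.12) and ERBB3 (7.54 ± 0.16), again without overlap.

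In hypoxia ERBB2 had the highest level per kb in each guide group (12.9 ± 1.14 in sgCtl, 11.6 ± 1.59 in sgXIST7 and 14.9 ± 0.40 in sgXIST9). HBEGF reached the second place in sgCtl (7.25 ± 3.63 CPM per kb), where it overlapped with ERBB3 (3.83 ± 0.64), and EGFR (1.48 ± 0.58) came after TGFA (1.86 ± 1.12) and AREG (1.53 ± 1.27), with overlap. In the KD groups the 3 receptors stayed above HBEGF on average. EGFR and HBEGF overlapped in sgXIST7 (3.36 ± 0.37 and 2.76 ± 0.55) and did not in sgXIST9 (5.21 ± 0.94 and 3.22 ± 0.94). EREG, BTC, NRG1 and ERBB4 were at 0.02 CPM per kb or less in every group.

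Summed over the 6 ligands, the level per kb was 1.39 ± 0.30 in sgCtl in normoxia and 10.7 ± 5.97 in hypoxia, against 23.1 ± 1.12 and 18.2 ± 1.24 for the 4 receptors. In sgXIST7 the ligands summed to 1.32 ± 0.47 and 5.16 ± 0.46 and the receptors to 33.2 ± 5.77 and 22.9 ± 2.49. In sgXIST9 the ligands summed to 0.94 ± 0.06 and 4.83 ± 1.76, and the receptors to 27.8 ± 1.00 and 29.6 ± 0.65, where normoxia and hypoxia did not overlap for either sum. The ligand sums leave out EGF, NRG2 and NRG4, so they do not give the total ligand level of a group. In hypoxia the mean of NRG4 was 0.27 CPM per kb in sgCtl, 5.70 in sgXIST7 and 3.89 in sgXIST9. In the same order NRG2 had 0.63, 1.86 and 2.45, and EGF had 0.04, 0.27 and 0.55.

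As a share of the summed receptor level, EGFR was 16.9% ± 2.18 in sgCtl in normoxia, 31.4% ± 3.54 in sgXIST7 and 41.1% ± 1.65 in sgXIST9 (SD, n = 3), and the 3 groups did not overlap. In hypoxia it was 8.27% ± 3.83, 14.7% ± 0.44 and 17.5% ± 2.85. ERBB2 took the largest share in hypoxia, 70.8% ± 1.70 in sgCtl and 50.7% ± 2.04 and 50.3% ± 1.37 in sgXIST7 and sgXIST9. ERBB3 went from 35.7% ± 0.78 to 20.9% ± 2.19 in sgCtl, while it was 34.5% ± 1.98 and 34.7% ± 1.70 in sgXIST7 in normoxia and hypoxia. These shares describe transcripts and were not tested.

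**Figure D2:**
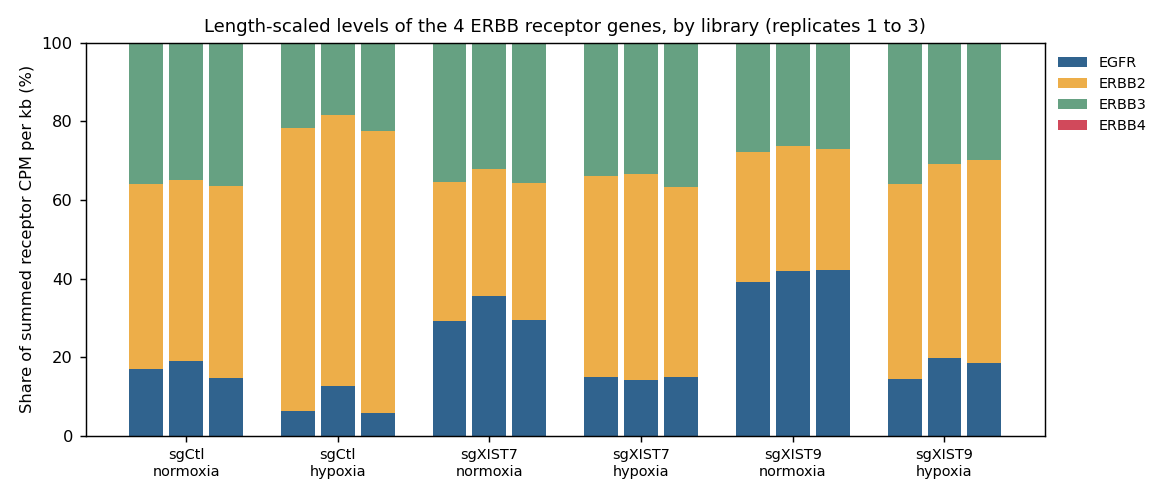
Share (%) of the summed CPM per kb of the 4 ERBB receptor genes taken by each, 1 bar per library with replicates 1 to 3 from left to right. EGFR (blue) is 14.8 to 19.1% in sgCtl and 39.2 to 42.1% in sgXIST9 in normoxia, ERBB2 (yellow) is 68.8 to 72.0% in sgCtl in hypoxia, and ERBB4 is too low to be seen.

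HBEGF, a heparin-binding ligand of EGFR and ERBB4, was low in normoxia, with 2.75, 2.01 and 2.53 CPM in sgCtl, 2.51, 1.44 and 1.70 in sgXIST7 and 2.14, 2.07 and 1.93 in sgXIST9. In hypoxia it had 21.2, 22.8 and 7.27 CPM in sgCtl, 5.02, 7.07 and 7.42 in sgXIST7 and 8.29, 9.35 and 5.11 in sgXIST9. Every hypoxia library was above every normoxia library, and replicates 1 and 2 of sgCtl stood above all others. The log2 fold change in hypoxia was 2.82 in sgCtl (SE 0.36, adjusted p = 8.2e-06, edgeR), 1.77 in sgXIST7 (SE 0.36, adjusted p = 0.00046, edgeR) and 1.89 in sgXIST9 (SE 0.36, adjusted p = 0.00028, edgeR).

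Compared to sgCtl in hypoxia, HBEGF was lower in sgXIST7 (log2 fold change −1.41, SE 0.34, adjusted p = 0.0031, edgeR), with overlap of 1 sgCtl library. In sgXIST9 it was −1.17 (SE 0.33, adjusted p = 0.013, edgeR), which was not called, while it was called with DESeq2 (−1.21, adjusted p = 0.0028) and in the paired fit with the replicate number as a block (−1.14, adjusted p = 0.0098, edgeR). These values depended on which libraries were used. Without the hypoxia libraries numbered 3 they were −1.86 (adjusted p = 4.8e-06, edgeR) and −1.32 (adjusted p = 0.00018, edgeR), and without replicate 3 of sgCtl alone the latter was −1.53 (adjusted p = 0.00012, edgeR), whereas in fits of only the groups compared the call in sgXIST7 was lost (adjusted p = 0.038, edgeR). It was lost also without replicate 1 or 2 of sgCtl in hypoxia (−1.23, adjusted p = 0.018, and −1.15, adjusted p = 0.022) or of sgXIST7 in hypoxia (−1.25, adjusted p = 0.015, and −1.48, adjusted p = 0.011). The increase in sgXIST7 differed from that in sgCtl by −1.05 (SE 0.50, adjusted p = 0.19, edgeR) and passed the test only without the hypoxia libraries numbered 3 (−1.49, adjusted p = 0.0023, edgeR).

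TGFA, a ligand of EGFR, had 0.94, 1.08 and 1.49 CPM in sgCtl in normoxia, 0.39, 0.50 and 0.48 in sgXIST7 and 0.45, 0.16 and 0.12 in sgXIST9. In hypoxia it had 11.8, 10.1 and 2.57 CPM in sgCtl, 2.29, 3.22 and 1.04 in sgXIST7 and 5.06, 6.13 and 2.15 in sgXIST9. Each guide group was higher in hypoxia without overlap, and replicate 3 was the lowest hypoxia library of each. The log2 fold change in hypoxia was 2.79 in sgCtl (SE 0.54, adjusted p = 0.00037, edgeR), 2.29 in sgXIST7 (SE 0.59, adjusted p = 0.003, edgeR) and 4.11 in sgXIST9 (SE 0.63, adjusted p = 3.7e-05, edgeR). The value in sgXIST7 lost its call without replicate 1 or 3 in normoxia or replicate 2 in hypoxia of sgXIST7 (adjusted p = 0.015, 0.012 and 0.02, edgeR).

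In hypoxia TGFA was lower in sgXIST7 than in sgCtl, although replicate 3 of sgCtl overlapped with the sgXIST7 libraries. The log2 fold change was −1.87 (SE 0.50, adjusted p = 0.0064, edgeR), a call that was lost in a fit of only those groups (adjusted p = 0.048), with no filter on low counts (adjusted p = 0.01) and without any 1 of 4 libraries (sgCtl replicates 1 and 2 and sgXIST7 replicates 1 and 3, adjusted p = 0.038, 0.027, 0.018 and 0.032). It was −0.88 in sgXIST9 (SE 0.47, adjusted p = 0.18, edgeR). In normoxia it was −1.37 in sgXIST7 (SE 0.63, adjusted p = 0.14, edgeR) and −2.20 in sgXIST9 (SE 0.69, adjusted p = 0.029, edgeR). The normoxia groups of both KD guides did not overlap with sgCtl, at 14 to 26 counts in sgCtl and 2 to 11 in the KD libraries. Without the hypoxia libraries numbered 3, both normoxia differences were called (adjusted p = 0.0055 and 0.00031, edgeR), and the difference in sgXIST9 was called with DESeq2 as well (adjusted p = 0.0056).

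AREG, another ligand of EGFR, was near the detection limit in normoxia, with 0, 0 and 6 counts in sgCtl, 20, 8 and 5 in sgXIST7 and 0, 0 and 1 in sgXIST9. In hypoxia it had 42, 59 and 1 counts in sgCtl, 61, 53 and 20 in sgXIST7 and 19, 24 and 4 in sgXIST9. Replicate 3 of sgCtl in hypoxia stood with the normoxia libraries, so that the sgCtl groups overlapped, and the other hypoxia groups were above normoxia. In sgCtl the fitted log2 fold change was 3.85 (SE 0.99, adjusted p = 0.0038, edgeR), in sgXIST7 2.20 (SE 0.76, adjusted p = 0.02, edgeR), which was not called. In sgXIST9 the gene was called (adjusted p = 0.0061, edgeR), and its 47 summed counts in hypoxia against 1 in normoxia gave a ratio per library size of 45.8 (95% exact counting interval 7.83 to 1848).

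The calls of AREG depended on the filter and on single libraries. With no filter on low counts they were lost in sgCtl (adjusted p = 0.011) and sgXIST9 (adjusted p = 0.015), and the call in sgCtl was lost without replicate 1 or 2 in normoxia or in hypoxia (log2 fold changes 3.30, 3.37, 3.59 and 3.40), that in sgXIST9 without any 1 of 5 of its libraries (all but replicate 3 in hypoxia). Without the hypoxia libraries numbered 3, AREG was called in hypoxia in all 3 guide groups (log2 fold changes 4.35, 2.37 and 5.39 in sgCtl, sgXIST7 and sgXIST9). Between the KD groups in normoxia, the 33 summed counts of sgXIST7 against 1 of sgXIST9 gave a ratio of 30.0 (95% exact counting interval 5.03 to 1222), with no overlap and an adjusted p of 0.074 (edgeR). In this comparison 0 of 6 members were called, against 3.4% of all genes, and 0 of 6 were called in hypoxia, against 4.46%. At an unadjusted p under 0.05 these comparisons had 3 and 4 of the 6, and DESeq2 called 0 and 0.

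EREG and BTC, both ligands of EGFR, and NRG1, a ligand of ERBB3 and ERBB4, were not detected or nearly so. BTC had 0 counts in all 18 libraries, EREG had 1 count in each of 2 libraries, and NRG1 had at most 5 counts, in sgCtl in hypoxia. EREG and BTC lie on either side of AREG on chromosome 4, and of the 17 genes of the table within 500000 bases of AREG, EREG, BTC or EPGN, 3 were tested (MTHFD2L, AREG and PARM1), while the others had at most 8 counts in any library.

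**Figure D3:**
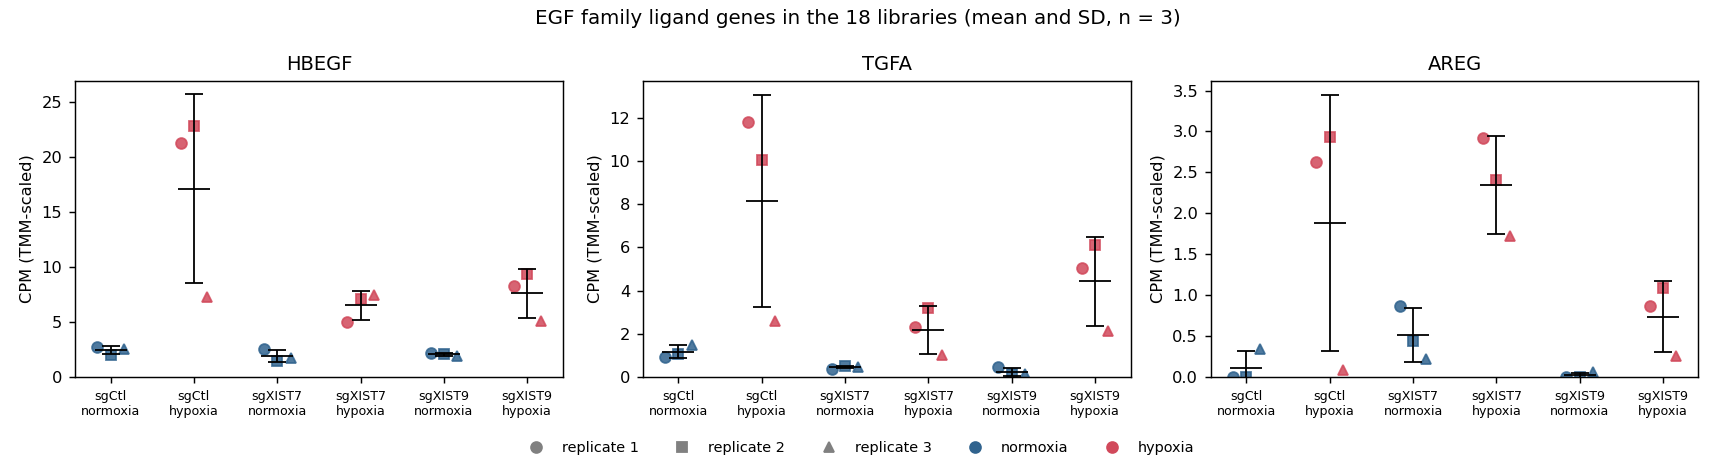
TMM-scaled CPM of HBEGF, TGFA and AREG in each of the 18 libraries, with the mean and SD of 3 libraries in black and each panel on its own axis from 0. The triangles (replicates numbered 3) are the lowest hypoxia libraries for TGFA and AREG, with TGFA at 2.57 CPM in sgCtl against 11.8 and 10.1 for the other two.

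The libraries numbered 3 moved with these ligands. In hypoxia TGFA in replicate 3 was 0.235, 0.376 and 0.384 times the mean of replicates 1 and 2 in sgCtl, sgXIST7 and sgXIST9. For HBEGF the ratios were 0.33, 1.23 and 0.58. VEGFA, a hypoxia-induced angiogenic factor, was higher in the same libraries (1.62, 1.44 and 2.03 times), as was CA9, a carbonic anhydrase induced by hypoxia (5.94, 1.91 and 2.09 times). For EGFR the ratios were 0.684, 0.87 and 1.06. The part of this difference between libraries in the results was not tested, and without the 3 libraries the members called numbered 2, 2, 3 and 3 in the 4 comparisons of KD to sgCtl (normoxia, then hypoxia, sgXIST7 before sgXIST9), where 9.07%, 9.24%, 17.9% and 11.9% of all genes were called, and 5, 4 and 4 in hypoxia in sgCtl, sgXIST7 and sgXIST9, where 23.4%, 27.2% and 24.5% were. Between the KD groups in normoxia 1 of 6 was then called (AREG, 4.61% of all genes), as was 1 in the difference of response of sgXIST7 (HBEGF, 8.43%) and of sgXIST9 (ERBB3, 5.38%) to sgCtl.

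**Figure D4:**
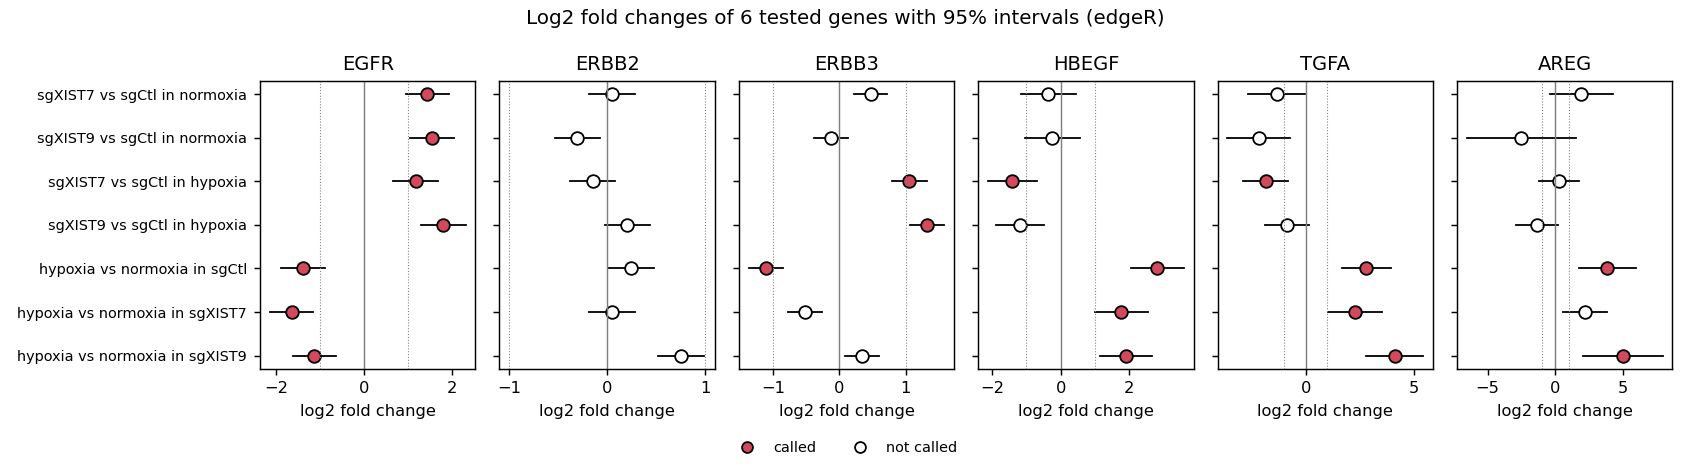
Log2 fold changes (points) with 95% intervals (lines) of the 6 tested genes in the 7 comparisons, each panel with its own axis, red for called genes, and dotted lines at the fold limit of 1. EGFR is called in all 7, ERBB2 in none, and the hypoxia values of HBEGF and TGFA lie between 1.77 and 4.11.

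Of the other EGF family ligands (EGF, EPGN, NRG2, NRG3 and NRG4), 3 of 5 were tested, and each was called as higher in KD cells except NRG4 in sgXIST7 in normoxia. Of all genes, 7.76% were called in sgXIST7 and 7.7% in sgXIST9 in normoxia, and 14.0% and 9.53% in hypoxia. EGF had 0.07 to 0.62 CPM in sgCtl in normoxia, 2.68 to 4.44 in sgXIST7 and 3.45 to 5.22 in sgXIST9. The log2 fold changes were 3.05 (SE 0.44, adjusted p = 6.7e-05, edgeR) and 3.51 (SE 0.44, adjusted p = 1.4e-05, edgeR), and in hypoxia 2.63 and 3.66 (adjusted p = 0.00042 and 1.5e-05, edgeR). NRG2, a neuregulin, had 1.41 to 2.30 CPM in sgCtl in normoxia, 7.31 to 9.66 in sgXIST7 and 9.34 to 10.9 in sgXIST9 (log2 fold changes 2.23 and 2.46, and in hypoxia 1.53 and 1.92).

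NRG4, a ligand of ERBB4, had 0.86 to 1.01 CPM in sgCtl in normoxia, 2.05 to 2.56 in sgXIST7 and 4.91 to 5.74 in sgXIST9. In sgXIST9 it was called (2.47, SE 0.51, adjusted p = 0.0017, edgeR), and in sgXIST7 it was not (1.30, adjusted p = 0.089, edgeR). In hypoxia it had 0.45 to 1.51 CPM in sgCtl, 10.1 to 26.0 in sgXIST7 and 5.36 to 22.4 in sgXIST9, with log2 fold changes to sgCtl of 4.50 and 3.95 (adjusted p = 4.7e-06 and 2.1e-05, edgeR). In hypoxia compared to normoxia NRG4 was called in sgXIST7 (2.98, adjusted p = 2.7e-05, edgeR), with −0.22 in sgCtl (adjusted p = 0.78, edgeR) and 1.25 in sgXIST9 (adjusted p = 0.018, edgeR). The response of sgXIST7 compared to sgCtl differed by 3.20 (adjusted p = 0.016, edgeR), which was not called. It was called with DESeq2 (3.17, adjusted p = 0.00029) and without the hypoxia libraries numbered 3 (3.46, adjusted p = 0.00014, edgeR), as was the normoxia difference of sgXIST7 to sgCtl in the latter fit (1.30, adjusted p = 0.0038, edgeR). The median of the 3 tested ligands was 2.23 and 2.47 in normoxia and 2.63 and 3.66 in hypoxia, against −0.01, −0.02, −0.02 and −0.01 over all genes.

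Among 11 genes of ligand shedding and trafficking, 10 were tested. In normoxia 0 of 10 were called in sgXIST7 and 0 of 10 in sgXIST9 (edgeR), against 7.76% and 7.7% of all genes. An unadjusted p under 0.05 was reached by 3 and 4, and DESeq2 called 0 and 0. Without the hypoxia libraries numbered 3, 2 and 1 were called there, against 9.07% and 9.24% of all genes. TIMP3, an inhibitor of ADAM17, rose in hypoxia in each guide group, by 2.72 in sgCtl (SE 0.46, adjusted p = 0.00011, edgeR), 1.72 in sgXIST7 (adjusted p = 0.0094, edgeR, a call lost in 12 of the 18 fits that left out 1 library) and 2.49 in sgXIST9 (adjusted p = 0.00045, edgeR). FRMD8, which stabilizes the iRhom and ADAM17 complex, rose by 1.04 in sgCtl (adjusted p = 0.00014, edgeR) and 1.83 in sgXIST7 (adjusted p = 2.5e-07, edgeR), and ADAM17 itself by 1.21 in sgXIST7 (adjusted p = 5.8e-06, edgeR). ADAM12, a further protease of this kind, had 1 summed count in normoxia in each KD group and 2 in sgCtl in hypoxia, against 122 in sgXIST7 and 43 in sgXIST9 in hypoxia. The ratio of hypoxia to normoxia was 143 in sgXIST7 (95% exact counting interval 25.2 to 5703) and 41.9 in sgXIST9 (7.14 to 1694). Called in hypoxia were 2 of 10 in sgCtl, 4 in sgXIST7 and 2 in sgXIST9, all higher, against 19.7%, 27.3% and 23.3% of all genes. In sgCtl FRMD8 lost its call without replicate 3 in hypoxia (0.86). Compared to sgCtl in hypoxia, ADAM12 was higher with ratios of 53.0 (14.4 to 443) in sgXIST7 and 17.04 (4.44 to 145) in sgXIST9, and TIMP3 had log2 fold changes of −2.54 and −1.57. In sgXIST9 the groups overlapped for TIMP3 and its call was lost in 13 of the 18 fits that left out 1 library (−1.91 to −1.27), and that of ADAM12 was lost in 7.

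All 24 receptor-proximal adaptors and effectors were tested. Called in normoxia were BRAF in sgXIST7 (−1.05, adjusted p = 0.0001, edgeR) and GAB1, a docking protein, in sgXIST9 (−2.75, adjusted p = 1.3e-07, edgeR). This is 1 of 24 in each KD group, against 7.76% and 7.7% of all genes. The call of BRAF was lost in 2 of the 18 fits that left out 1 library. In hypoxia GAB1 rose in each guide group, by 1.39 in sgCtl, 1.86 in sgXIST7 and 3.39 in sgXIST9 (adjusted p = 2.1e-05, 6e-07 and 4.7e-09, edgeR), and GAB2, a related docking protein, fell in each (−1.31, −1.61 and −1.31). The response of GAB1 was larger in sgXIST9 than in sgCtl by 2.0 (adjusted p = 0.0014, edgeR). SHC1, the adaptor that binds the activated receptors, rose by 1.64 in sgXIST7 (adjusted p = 3.9e-07, edgeR), and its response was larger than in sgCtl by 1.80 (adjusted p = 0.00041, edgeR). In total, 1 gene rose and 1 fell in hypoxia in sgCtl, 7 rose and 2 fell in sgXIST7 (among them SOS1, SOS2, MAP2K1 and STAT3 higher by 1.17 to 1.69 and PIK3CB lower by −1.27), and 3 rose and 1 fell in sgXIST9 (with SOS2 and STAT3 higher by 1.41 and 1.18). Without the hypoxia libraries numbered 3, 6 genes of the list were called in sgXIST7 in place of 9, with STAT3 at 0.99 and PIK3CB at −1.05 (adjusted p = 0.039, edgeR) no longer called, and STAT3 was lost in sgXIST9 (0.83). All genes called were 19.7%, 27.3% and 23.3%. The list medians were 0.06, 0.11 and 0.04, against 0.02, 0.01 and 0.09 over all genes. Compared to sgCtl in hypoxia, SHC1 and PIK3R1 were higher in both KD groups (SHC1 1.50 and 1.00, PIK3R1 1.39 and 1.30) and MAP2K2 was lower in both (−1.02 and −1.07), while in sgXIST7 MAP2K1 was higher (1.04) and BRAF lower (−1.33). SHC1 in sgXIST9 was under the fold limit without the hypoxia libraries numbered 3 (0.67) and with DESeq2 (0.97). In the 18 fits that left out 1 library, MAP2K2 lost its call in 2 for sgXIST7 and in 3 for sgXIST9. MAP2K1 in sgXIST7 lost its call in 1 of them.

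Of 18 genes that inhibit the receptors or drive their turnover, all were tested. PTPRJ, a receptor phosphatase, was higher in both KD groups, by 2.30 and 1.58 in normoxia and 2.63 and 1.84 in hypoxia (adjusted p = 6.7e-07, 3.6e-05, 1.7e-07 and 9.3e-06, edgeR). CBLC, a ubiquitin ligase, had 53 summed counts in sgXIST7 against 1 in sgCtl in normoxia, a ratio of 37.4 (95% exact counting interval 6.43 to 1506), and in hypoxia, where sgCtl had 0 counts, it was at least 1.71-fold higher in sgXIST7, computed against 3 counts per library. CBLB, a related ligase, was lower in sgXIST9 in normoxia (−2.01, adjusted p = 1.9e-06, edgeR) and rose in hypoxia in each guide group (1.04, 1.26 and 2.57), more in sgXIST9 than in sgCtl by 1.53 (adjusted p = 0.0058, edgeR), a difference whose call was lost in 10 of the 18 fits that left out 1 library (1.39 to 1.82). In sgCtl its rise was 0.76 without the hypoxia libraries numbered 3, under the fold limit. LRIG3 fell in hypoxia in each (−1.52, −2.09 and −1.37). LRIG1, which promotes receptor degradation, rose in sgXIST9 (2.24, adjusted p = 0.00022, edgeR) and was lower in sgXIST7 than in sgCtl in hypoxia (−1.49, adjusted p = 0.0056, edgeR), a call lost without any 1 of 5 of these 6 libraries (all but replicate 3 of sgCtl). Its rise was 1.215 in sgCtl and 1.212 in sgXIST7. In normoxia it was −1.483 in sgXIST7 and −1.485 in sgXIST9 compared to sgCtl. These 4 values were not called in the main fit. All were called with DESeq2 (adjusted p = 0.0055, 0.0094, 0.0044 and 0.0054) and without the hypoxia libraries numbered 3. SPRED1, an inhibitor of RAS signaling, rose in sgXIST7 (1.21, adjusted p = 6.5e-06, edgeR).

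ERRFI1 (MIG6), an inhibitor that binds the EGFR kinase, was abundant, at 1183 to 1304 CPM in sgCtl in normoxia, 635 to 765 in sgXIST7 and 1235 to 1329 in sgXIST9. It was below the fold limit in the 7 comparisons, with −0.84 in sgXIST7 in normoxia (SE 0.10, adjusted p = 5.4e-06, edgeR). Its change in hypoxia was −0.36 in sgCtl, 0.67 in sgXIST7 and −0.59 in sgXIST9, and the response of sgXIST7 was called as higher than that of sgCtl by 1.03 (SE 0.14, adjusted p = 0.00041, edgeR) and than that of sgXIST9 by 1.26 (SE 0.14, adjusted p = 0.0003, edgeR). The first of these was at the fold limit, and fell to or under it without the hypoxia libraries numbered 3 (1.0) and in 3 of the 18 fits that left out 1 library (0.97 to 1.11 over all 18). In hypoxia compared to normoxia 2 of 18 genes of this list were called in sgCtl, 3 in sgXIST7 and 3 in sgXIST9, against 19.7%, 27.3% and 23.3% of all genes.

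Of 20 ERK-responsive genes, 19 were tested, and they did not move one way. In normoxia, 2 were called as higher and 5 as lower in sgXIST7, where 7.76% of all genes were called. In sgXIST9, 5 were called as higher and 1 as lower, where 7.7% of all genes were. PHLDA1 rose from 6.31 CPM in sgCtl to 149 in sgXIST7 and 531 in sgXIST9 (log2 fold changes 4.58 and 6.41, adjusted p = 3.6e-07 and 1.2e-08, edgeR). DUSP4, a phosphatase of ERK, was higher by 3.42 and 4.03 (adjusted p = 3.5e-06 and 5.1e-07, edgeR). DUSP6, another phosphatase of ERK, was at 29.0 CPM in sgCtl and 0.92 in sgXIST7 (−4.95, SE 0.24, adjusted p = 1.3e-10, edgeR), and in sgXIST9 it was −0.93 (adjusted p = 0.0014, edgeR), under the fold limit. In sgXIST7 VGF, IER3, FOSL1 and LIF were lower as well (−2.32, −1.75, −1.40 and −1.22), and in sgXIST9 DUSP5, SPRY4 and EPHA2 were higher (2.0, 1.37 and 1.06) and LIF lower (−1.10). The calls of IER3 and LIF in sgXIST7 were lost in 4 and 3 of the 18 fits that left out 1 library. Those of EPHA2 and LIF in sgXIST9 were lost in 2 and 6.

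In hypoxia FOS, an immediate early gene, rose in each guide group, by 3.54 in sgCtl, 4.13 in sgXIST7 and 2.72 in sgXIST9 (adjusted p = 2.5e-09, 2.7e-10 and 2e-08, edgeR). DUSP4 and VGF also rose in each (DUSP4 1.86, 1.46 and 1.96, VGF 2.11, 2.49 and 1.85). DUSP5 rose in sgCtl (2.77) and sgXIST7 (2.06), and its response in sgXIST9 was lower than in sgCtl by −2.31 (adjusted p = 0.00042, edgeR). IER3 rose in sgCtl and sgXIST7 (1.75 and 2.92), ETV4 fell in sgCtl (−1.53), CCND1 fell in both KD groups (−1.25 and −1.21), FOSL1 fell in sgXIST9 (−1.20), and EGR1, LIF and PHLDA1 rose in sgXIST7 (2.13, 1.69 and 1.18). The call of PHLDA1 was lost in 6 of the 18 fits that left out 1 library. In sgCtl PHLDA1 was 1.019 and not called. Without the hypoxia libraries numbered 3 it was called there (1.395, adjusted p = 0.0043, edgeR). Called as higher or lower were 5 and 1 of 19 in sgCtl, 8 and 1 in sgXIST7 and 3 and 2 in sgXIST9, against 19.7%, 27.3% and 23.3% of all genes, with list medians of 0.16, 0.37 and 0.10 against 0.02, 0.01 and 0.09 over all genes. Compared to sgCtl in hypoxia, PHLDA1, DUSP4 and SPRY4 were higher in both KD groups (4.74 and 4.95, 3.02 and 4.13, 1.50 and 1.42). DUSP6 (−4.81) and VGF (−1.95) were lower and EGR1 (1.57) and ETV4 (1.50) higher in sgXIST7, and FOSL1 (−1.38) and IER3 (−1.32) were lower in sgXIST9. Of the 127 calls of genes of the 5 lists in the 12 comparisons, 28 were lost in at least 1 of the 18 fits that left out 1 library.

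**Figure D5:**
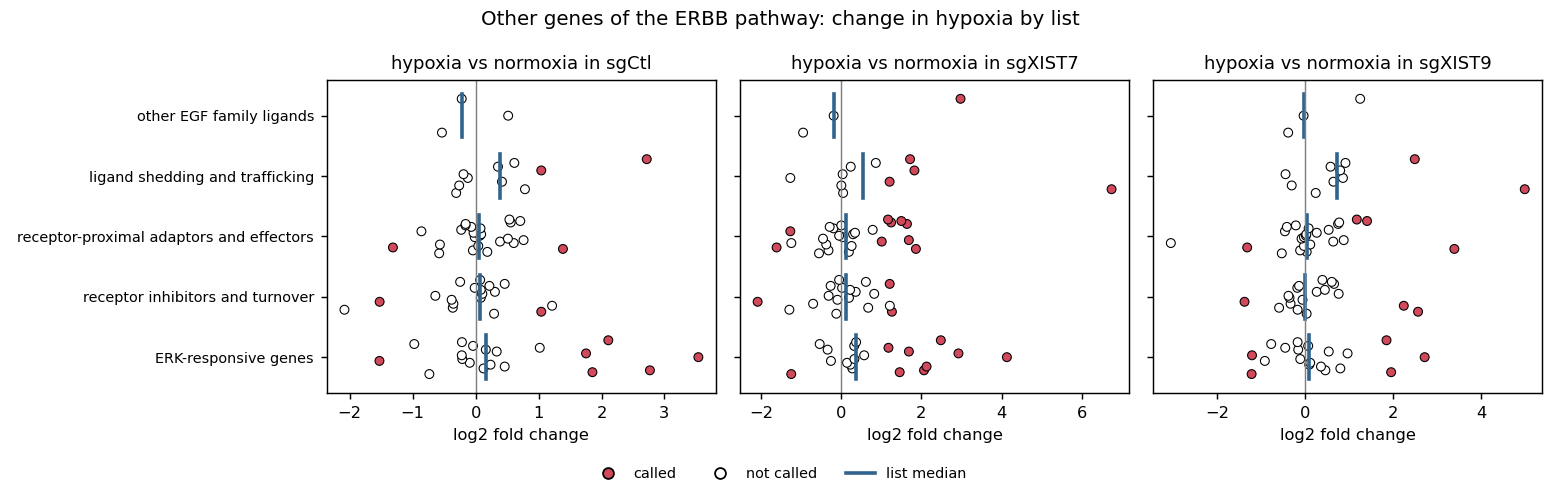
Log2 fold change in hypoxia compared to normoxia of each tested gene of the 5 pathway lists (1 point per gene), in each guide group on its own axis, with called genes in red and the list median as a blue line. The medians lie between −0.22 and 0.72, and the called genes of ligand shedding and trafficking are all above 1.

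TGFA, called as often as ERBB3 and HBEGF but with a lower mean CPM, was not included in the search for genes of like pattern. Over the 18 libraries, the genes whose log2 CPM was most like that of EGFR were RAD21, C18orf61 and CAND2 (Pearson's r = 0.982, 0.964 and 0.956). For ERBB3 they were LTBR, SLC29A2 and HMGN5 (0.936, 0.922 and 0.902), and for HBEGF they were JAG1, UBE2D1 and BCL11B (0.976, 0.97 and 0.967). Among the members the highest value was that of HBEGF and TGFA (0.924) and the lowest that of EGFR and HBEGF (−0.769). The libraries fall into 6 groups that share guide and oxygen, so these values describe the groups and carry no p-value.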

How the data were processed

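Total RNA of OVCAR3-KRAB cells with sgCtl, sgXIST7 or sgXIST9, in normoxia or after 24 h at 1% oxygen, was extracted with Trizol and depleted of ribosomal RNA, and stranded libraries were sequenced as paired ends. The authors trimmed reads with Trimmomatic, checked them with FastQC, used HISAT2 for alignment to hg38 and featureCounts for counting per gene; versions and the strand setting of the counting are not given in the sources used here. The deposited values are such counts per gene and library, not normalized. The deposited gene length is another column of the same table and was used for levels per kb. Of 28279 lines, 2 broken records were left out.

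Tests used edgeR 4.0.16 (R 4.3.3, limma 3.58.1): TMM scaling (factors 0.859 to 1.12), filterByExpr (minimum count 10, minimum total 15), glmQLFit (robust) and glmQLFTest over the 6 groups with no block (common dispersion 0.0321). Each SE is the size of the log2 fold change over the square root of F. The prior count of fitted folds was 0.125, and log2 CPM for correlations used a pseudocount of 0.5. The fit was tested on simulated data. Precision rests on 11794375 to 24906936 counts per library.

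The members and gene lists were chosen with earlier results of these data known. All 10 members are named, and of the lists the genes called, except 1 that is not reported here. NRDP1, an older name of RNF41, and LEAP2, listed in error, were dropped. The genes most alike are the 3 with the highest Pearson correlation with each of 3 members called most often (ties by higher mean CPM). Libraries with the same replicate number deviated together (r over 0.1 in all 3 pairs) in sgXIST7 to sgCtl in normoxia (0.223 to 0.493) and sgXIST9 to sgCtl in hypoxia (0.234 to 0.593). In each of the other 7 direct comparisons some pairs passed 0.1 and some did not (highest r 0.1035 to 0.542). Over all pairings of groups, also those that differ in both guide and oxygen, 18 of 45 pairs passed. The libraries that correlated best with their own number were 16 of 18, so that most comparisons may share a replicate structure. The labels name no shared culture or day. The fit without a block was kept as the main one, and the block was an alternative. Alternatives were DESeq2 1.42.0, RLE and upper-quartile scaling, other filters and thresholds, a replicate block, fits of only the groups compared, and libraries left out.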

Additional observations from a re-analysis of the deposited data

Results flagged for a closer look

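The response of ERBB3 to hypoxia differed between guide groups by the interaction test: the log2 fold change was higher by 1.45 in sgXIST9 than in sgCtl (SE 0.17, adjusted p = 0.00019, edgeR), and by 1.32 to 1.56 with any 1 library left out. All 3 sgCtl libraries were lower in hypoxia than in normoxia, and all 3 sgXIST9 libraries were higher.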

How the results depend on the processing

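RLE scaling, upper-quartile scaling and a filter at a mean CPM of 1 changed no direction and no call of the members they tested. With no limit on the fold, 2015 and 1959 genes were called in sgXIST7 and sgXIST9 in normoxia and 4129 and 2673 in hypoxia. In hypoxia compared to normoxia 5611, 6981 and 6288 were called (sgCtl, sgXIST7, sgXIST9), and between KD groups in hypoxia 1259. Members called were then 2 in sgXIST7 in normoxia and 1 between KD groups in normoxia. At an adjusted p of 0.05, the differences of response (sgXIST7 and sgXIST9 to sgCtl, sgXIST7 to sgXIST9) held 706, 468 and 130 genes. DESeq2 called 549, 371 and 155 genes in these differences, fits of only the groups compared 79, 90 and 15, and the fit without the hypoxia libraries numbered 3 called 1288, 822 and 289. Fits of only the groups compared called 1113 and 641 genes and 1 member (sgXIST7) in hypoxia, and 323 genes between KD groups. With no filter, 39 genes were called in the last difference of response. The replicate block gave 371 genes in the response of sgXIST7 to sgCtl and 56 in that of sgXIST7 to sgXIST9, and its 2 members in sgXIST9 in normoxia (TGFA −2.37, adjusted p = 0.007) and the call of HBEGF in sgXIST9 in hypoxia (−1.14, adjusted p = 0.0098) were its only changes of call among the members. 16 of 18 libraries correlated best with their own number. Members in sgXIST9 in normoxia were 2 also at an adjusted p of 0.05, with DESeq2, with only the groups compared and without the libraries numbered 3, where sgXIST7 had 2, the KD groups 1 and the response of sgXIST7 1. Without the libraries numbered 3, ERBB2 in sgXIST7 in hypoxia turned to 0.016 and AREG to −0.063, neither called.

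With 1 library left out, genes called ranged from 84 to 1198, 57 to 725 and 6 to 128 in the differences of response and 434 to 973 between KD groups in hypoxia. Members called ranged from 3 to 5 in hypoxia in sgCtl, 2 to 4 in sgXIST9, 1 to 4 in sgXIST7 to sgCtl in hypoxia and 1 to 2 in sgXIST9 in normoxia. Values that turned direction, none called, were AREG in sgXIST7 in hypoxia (−0.23 to 0.72), in sgXIST9 in normoxia (−4.33 to 1.82) and in the response of sgXIST9 (−3.18 to 2.97), EGFR between KD groups in normoxia (−0.378 to 0.009) and in the response of sgXIST7 (−0.42 to 0.12), ERBB2 in sgXIST7 in normoxia (−0.056 to 0.103) and in hypoxia to normoxia (−0.031 to 0.161), and HBEGF between KD groups in normoxia (−0.375 to 0.039) and in their responses (−0.33 to 0.14). The cause was not tested. Counts under about 10 limit AREG and TGFA in normoxia, ERBB4, EREG and NRG1.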
